A study of Mus musculus with 12 samples.

Results

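The chromatin regulator genes described here are the 67 protein-coding genes of the mouse RefSeq annotation (GRCm38.p6) whose symbols start with Kdm, Kmt, Hdac, Smarc or Dnmt, or with Chd or Tet followed by a digit, out of 21883 protein-coding genes. They comprise 18 Kdm genes, 8 Kmt, 11 Hdac, 13 Smarc, 4 Dnmt, 10 Chd and 3 Tet genes. A gene was counted as holding a peak when an interval of a peak list overlapped its body with 1 kb on both sides by at least 1 bp.

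The peaks come from S9.6 immunoprecipitation, which uses an antibody against RNA-DNA hybrids to recover the genomic fragments that carry R-loops, in a series that, by its title, concerns R-loops and genome editing with adeno-associated virus. The 12 libraries fall into 6 groups of 2: the S9.6 immunoprecipitate, the immunoprecipitate with RNase H1 (an enzyme that degrades the RNA of a hybrid) and the input DNA, each from HEPA1-6 and from liver. HEPA1-6 is a mouse hepatoma cell line, labelled wild type, hepatocyte and untreated. The liver came from C57/Bl6 mice and carries the same genotype, cell type and treatment labels; the age, sex and number of the animals are not given in the sources used here.

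An R-loop forms when a nascent transcript pairs with its template strand and displaces the other strand, and such structures are known from promoters with CpG islands, from transcript ends and from the bodies of transcribed genes. Chromatin regulators set the state of the chromatin in which transcription takes place. Kmt enzymes place methyl groups on histone lysines and Kdm enzymes remove them, Hdac enzymes remove acetyl groups, Smarc and Chd proteins are or accompany ATP-dependent nucleosome remodellers, Dnmt enzymes methylate cytosine in DNA, and Tet enzymes oxidise methylcytosine. Most of these genes are expressed in many tissues.

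The data are 1 list of peaks per source, 28717 in HEPA1-6 and 14908 in the list labelled liver, each called on merged material, so replicates cannot be compared and no p-value is given. The RNase H1 libraries and the single libraries were not analysed here, and the depth is unknown. Intervals are 95% Wilson intervals and cover counting error only. Each peak carries a score of the authors whose scale is not stated; it serves to rank peaks within a list, where the median was 21 in HEPA1-6 and 22 in the other list, and is not compared between lists. By counts of marker genes, the list labelled liver went against its label. Of 19 hepatocyte markers, 2 held a peak in it (Alb and Hnf4a), where 29.7% of all protein-coding genes did. Of 12 cell cycle genes 9 did, and of 14 markers of other liver cells 2 did (Cd68 and Sox9). In HEPA1-6, whose cell type label is also hepatocyte, the counts were 3, 11 and 2, where 42.0% of all protein-coding genes held a peak. The same order thus held in both lists. The list labelled liver is called by its label below, its peaks are called liver-labelled, and the part of this in any result was not tested.

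Chromatin regulator genes held peaks often in both lists, and no member held a peak in the list labelled liver alone. In HEPA1-6, 55 of the 67 genes held a peak (82.1%, 71.3 to 89.4%), where 42.0% of all protein-coding genes did. In the list labelled liver 38 did (56.7%, 44.8 to 67.9%), against 29.7%. All 38 were among the 55, against 27.8% of protein-coding genes with a peak in both lists. A HEPA1-6 peak alone was found at 17 members (25.4%, 16.5 to 36.9%; all genes 14.2%), and 12 had a peak in neither list (17.9%, 10.6 to 28.7%; all genes 56.1%). A count of 0 for the list labelled liver alone allows a share of up to 4.48% by counting error (3 counts of 67; the Wilson upper limit is 5.42%), and over all genes this class held 1.89%. Of genes with a HEPA1-6 peak, 69.1% of the members and 66.1% of all protein-coding genes also held a liver-labelled peak, so the members lay close to the background in that respect.

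Several peaks at the same gene were common. At least 3 peaks lay at 36 members in HEPA1-6 (53.7%), against 17.0% of all protein-coding genes, and at 16 members in the list labelled liver (23.9%), against 6.69%. In all, 256 HEPA1-6 and 102 liver-labelled peaks lay at the members, with a median of 4 and 2 per gene with a peak; the medians over all protein-coding genes with a peak were 2 and 1. HEPA1-6 peaks at members had a median width of 1132 bp (quartiles 668 and 2503 bp), and liver-labelled ones of 974 bp (648 and 2000 bp). Their scores ran from 11 to 189 and from 12 to 129, with medians of 21 and 26.5.

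**Figure D1:**
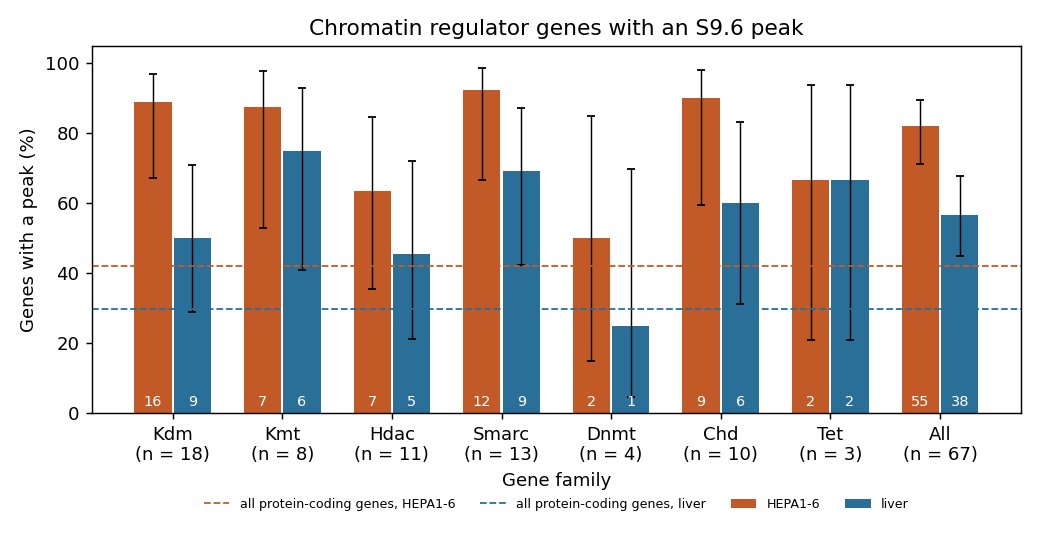
Share of the genes of each family, in percent, that held a peak in HEPA1-6 and in the list labelled liver, with 95% Wilson intervals as error bars and the shares over all protein-coding genes (42.0% and 29.7%) as dashed lines. Smarc (12 of 13), Chd (9 of 10), Kdm (16 of 18) and Kmt (7 of 8) stand highest in HEPA1-6, and the intervals of the small families Dnmt and Tet are wide.

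The members are long genes, with a median length of 51842 bp (5398 to 869516 bp) against 17170 bp over all protein-coding genes, and a long gene offers more positions for a peak. Within classes of length the shares were as follows. Between 10 and 30 kb, 13 of 14 members held a HEPA1-6 peak (92.9%, 68.5 to 98.7%), where 49.0% of all genes of that length did, and 9 of 14 (64.3%, 38.8 to 83.7%) a liver-labelled peak, against 33.0%. Between 30 and 100 kb, 28 of 35 (80.0%, 64.1 to 90.0%) held a HEPA1-6 peak, against 51.5%, and 21 of 35 (60.0%, 43.6 to 74.4%) a liver-labelled peak, against 35.4%. From 100 kb upwards 12 of 15 (80.0%, 54.8 to 93.0%) held one in HEPA1-6, against 42.3%. In the list labelled liver it was 6 of 15 (40.0%, 19.8 to 64.3%), and the 34.8% of all genes of that length lies inside that interval. Of the 3 members under 10 kb, Kmt5c and Smarcd2 held peaks in both lists and Hdac10 in neither, where 30.1% and 21.7% of all genes of that length held a HEPA1-6 and a liver-labelled peak. Among the 67 members, length and number of peaks were weakly related (Spearman's rho 0.183 in HEPA1-6 and -0.154 in the list labelled liver; the genes share both libraries).

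The 12 members without a peak in either list were Chd5, Dnmt3b, Dnmt3l, Hdac5, Hdac8, Hdac9, Hdac10, Kdm4d, Kdm5d, Kmt2c, Smarca1 and Tet1. They include genes known for restricted expression, such as Dnmt3l (a cofactor of DNA methylation in germ cells), Chd5 (a neuronal remodeller) and Kdm4d (a testis-enriched demethylase). They also include broadly expressed genes such as Kmt2c and Hdac8. Their median length was 48898 bp, close to the 48424 bp of members with a peak in both lists. Of 5 members on chromosome X, 3 held a HEPA1-6 peak (Hdac6, Kdm5c and Kdm6a) and 2 a liver-labelled peak (Hdac6 and Kdm5c), against 13.9% and 5.90% of all protein-coding genes of that chromosome; Hdac8 and Smarca1 held none.

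Among the histone methyltransferases, 7 of 8 held a HEPA1-6 peak (87.5%, 52.9 to 97.8%) and 6 a liver-labelled peak (75%, 40.9 to 92.9%). Over all protein-coding genes the shares were 42.0% and 29.7%. The highest HEPA1-6 score of any member was that of Kmt2e, a member of the MLL family; in the list labelled liver it came after Smarcc2 (129). Its only peak was the same interval in both lists, chr5:23432455-23435460, 3006 bp at the lower boundary of the gene, with a score of 189 in HEPA1-6 and 110 in the list labelled liver. By rank it stood at percentile 99.2 and 98.2 of its lists. It also overlaps the gene 5031425E22Rik, so these peaks cannot be assigned to Kmt2e alone.

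Kmt2d, which places methyl groups at enhancers, had the largest share of its body within HEPA1-6 peaks of all members. In the list labelled liver, Smarcd2 (52.7%), Hdac7 (50.6%) and Kmt5a (49.0%) were covered over a larger share than Kmt2d. On chromosome 15, 3 HEPA1-6 peaks (scores 86, 39 and 25) covered 89.7% of its 42409 bp, and 7 liver-labelled peaks (67, 36, 31, 28, 24, 15 and 12) covered 48.1%. Its main HEPA1-6 peak, chr15:98838924-98858880, was 19957 bp wide and overlapped 4 of the liver-labelled peaks. Kmt2c, its close paralogue on chromosome 5, held no peak in either list. The other MLL paralogues lay between: Kmt2b had 4 HEPA1-6 peaks over 72.2% of its body (top score 54) and 1 liver-labelled peak over 14.0% (29), and Kmt2a had 5 in HEPA1-6 (48, 27, 20, 20 and 16) and none in the other list.

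The Kmt5 enzymes methylate histone H4. At Kmt5a, which makes the monomethyl mark, 2 HEPA1-6 peaks (71 and 55) covered 63.9% of the body and 4 liver-labelled peaks (52, 43, 32 and 24) covered 49.0%. Kmt5b held 6 and 3 peaks, with top scores of 43 and 39. The top liver-labelled peak and a HEPA1-6 peak with score 43 both start at chr19:3811356. Another HEPA1-6 peak with score 43, chr19:3805494-3808283, has the strand opposite to the gene. At Kmt5c the 2 HEPA1-6 peaks (16 and 14) lay at the 3′ end and inside the gene, while the liver-labelled peak (21) lay at the start, without overlap. The start peak also touches Gm42369, and both lists rank these peaks below their median score.

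The lysine demethylases had the widest gap between the lists in number of genes: 16 of 18 held a HEPA1-6 peak (88.9%, 67.2 to 96.9%) and 9 a liver-labelled peak (50%, 29.0 to 71.0%). The intervals overlap. Kdm2a, a CpG island binding demethylase, had the highest scores of the family. Its 6 HEPA1-6 peaks scored 88, 67, 18, 16, 15 and 11, and its 3 liver-labelled peaks 76, 31 and 13, with the top peaks overlapping at the lower boundary of the gene (chr19:4315849-4321937 and chr19:4316899-4317767).

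Kdm6b, which removes the Polycomb methyl mark, held 4 HEPA1-6 peaks (67, 55, 47 and 16) and 5 liver-labelled peaks (50, 33, 32, 31 and 20). Of its 21860 bp, 79.9% lay within HEPA1-6 and 40.3% within liver-labelled peaks. The HEPA1-6 peak with score 55 and the liver-labelled peaks with 33 and 20 lay outside the body and touch neighbouring genes. Without peaks that touch another gene, Kdm6b kept 1 HEPA1-6 peak (67) and 2 liver-labelled peaks (top score 50). Its paralogue Kdm6a had 1 HEPA1-6 peak (38), at the start, and no liver-labelled peak. Kdm3a, an enzyme of the JMJD1 family, held 8 HEPA1-6 peaks (61, 31, 30, 24, 17, 17, 16 and 12) and 1 liver-labelled peak (42). The top peaks lay at its start, chr6:71631260-71633994 and chr6:71631647-71633668. Kdm3b, the related gene, held 4 peaks in HEPA1-6 (40, 33, 22 and 20) and none in the other list.

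The Kdm5 genes encode demethylases that act at promoters. Kdm5a held 13 HEPA1-6 peaks (top score 46) and 3 liver-labelled peaks (22), and Kdm5b held 11 (58) and 2 (39). At Kdm5b the top peaks of both lists began at the same base, chr1:134560010, and both also touch Mgat4e. Kdm5c, on the X chromosome, held 2 (50 and 16) and 1 (18), and the Y-linked Kdm5d none.

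Kdm1a, the LSD-type amine oxidase demethylase, held 4 HEPA1-6 peaks (61, 23, 19 and 11), the first at its start, and none in the list labelled liver. Its paralogue Kdm1b held 1 (16) and none. Among the Kdm4 genes, Kdm4a held 2 (22 and 19) and 1 (15) that did not overlap, Kdm4b 4 (top 25) and 1 (29), Kdm4c 5 (top 22) and none, and Kdm4d none in either. The remaining genes of the family were Kdm2b with 4 and none, Kdm7a with 3 and 2, and Kdm8 with 2 and none. None of these peaks scored above 32.

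Of the histone deacetylases, 7 of 11 held a peak in HEPA1-6 (63.6%, 35.4 to 84.8%) and 5 in the list labelled liver (45.5%, 21.3 to 72.0%). Both intervals include the shares over all protein-coding genes, 42.0% and 29.7%. Of the nuclear class I enzymes, Hdac2 held 3 HEPA1-6 peaks (48, 44 and 25) that covered 32.1% of its body and 2 liver-labelled peaks (46 and 35) over 7.77%. Hdac1 held 2 (34 and 12) and 1 (12), Hdac3 3 (22, 16 and 14) and none, and Hdac8 none in either list.

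Of the class IIa enzymes, which shuttle between nucleus and cytoplasm, Hdac4 and Hdac7 held peaks in both lists and Hdac5 and Hdac9 in neither. Hdac4 had the most peaks of any member: 24 in HEPA1-6, of which 23 scored 29 or less, spread over a gene of 266924 bp, and 2 in the list labelled liver (38 and 23). The top peaks of Hdac4 began at the same base in both lists (chr1:91950654-91950903 with score 40 in HEPA1-6). Hdac7, on chromosome 15, had 4 HEPA1-6 peaks (100, 61, 50 and 19), one of them 21521 bp wide, over 72.3% of its body. Its 9 liver-labelled peaks (53 to 13) were the most of any member in that list and covered 50.6%. The peak with score 100 also reaches Slc48a1; without peaks that touch another gene, the top scores at Hdac7 were 50 and 42.

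Hdac6, a class IIb enzyme that deacetylates tubulin, was covered over 70.3% in HEPA1-6 by 4 peaks (33, 33, 30 and 21) and over 6.15% by its only liver-labelled peak (14). Hdac10, also of class IIb, held none in either list. Hdac11 held 1 in HEPA1-6 (37) and none in the other list.

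Hdac7, Kmt2d and Smarcd1 lie on chromosome 15, where 54.4% of all protein-coding genes held a liver-labelled peak, against 28.7% on the other chromosomes. In HEPA1-6 the shares were 56.3% and 41.5%. Of the 4 members of chromosome 15, these 3 held peaks in both lists and Hdac10 in neither. The part of the chromosome in their values was not tested.

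Genes of DNA methylation and demethylation made up the smallest families. Dnmt1, the maintenance methyltransferase, held 7 HEPA1-6 peaks (30, 21, 20, 16, 14, 13 and 12) over 13.6% of its body and none in the list labelled liver. Dnmt3a, a de novo methyltransferase, held 3 (33, 26 and 16) and 1 (50). The top peaks of both lists overlapped (chr12:3808004-3808849 and chr12:3808125-3809102), within 1 kb of the annotated start at chr12:3807160. Dnmt3b and Dnmt3l held none. The liver-labelled peak of Dnmt3a stood at percentile 91.4 of its list by score, and the HEPA1-6 peak it overlaps at percentile 78.2 of the other.

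Of the Tet dioxygenases, Tet3 held 12 HEPA1-6 peaks (top scores 71, 52 and 49) and 7 liver-labelled peaks (36 to 13). Of its body, 31.8% and 16.4% lay within them. The HEPA1-6 peak with score 52 lay beyond the end of the body and touches Bola3, as did a liver-labelled peak with score 26. Both top peaks of Tet3 lay at its annotated start, chr6:83438555-83447364 and chr6:83439049-83445669, and also overlap B230319C09Rik. Tet2 held 6 (55, 19, 18, 15, 13 and 12) and 2 (27 and 18), both top peaks at the start. Tet1, known from pluripotent cells, held none.

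The Smarc genes, which encode subunits of the SWI/SNF (BAF) complexes and related remodellers, held a HEPA1-6 peak in 12 of 13 cases (92.3%, 66.7 to 98.6%) and a liver-labelled peak in 9 (69.2%, 42.4 to 87.3%). Over all protein-coding genes the shares were 42.0% and 29.7%. The catalytic subunits differed. Smarca4 held 8 HEPA1-6 peaks (57, 26, 20, 19, 18, 17, 12 and 11) and 1 liver-labelled peak (37), which was the same interval as its top HEPA1-6 peak (chr9:21615625-21616674) at the start. Smarca2, its paralogue, was the only member with more bases in liver-labelled than in HEPA1-6 peaks. There, 2 HEPA1-6 peaks (19 and 17) covered 0.177% of the body and 1 liver-labelled peak (33) covered 2.18%, and the peaks at the start also touch Gm52395.

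The ISWI-type ATPases were as unlike each other: Smarca5 held 3 HEPA1-6 (72, 44 and 17) and 3 liver-labelled peaks (23, 22 and 19), and Smarca1 none. Smarcad1, a Fun30-type remodeller, held 7 (95, 49, 30, 29, 22, 21 and 12) and 3 (35, 25 and 21). Its top peaks were the same interval at the start, chr6:65042789-65043692. Smarcal1, an annealing helicase, held 2 in HEPA1-6 (34 and 16) and none in the other list.

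Among the accessory subunits, Smarcc2 had the highest scores, 182 in HEPA1-6 and 129 in the list labelled liver, at peaks over its end that also overlap Myl6 and Myl6b (chr10:128487210-128499515 in HEPA1-6). The other 5 HEPA1-6 peaks of Smarcc2 scored 21 or less and the other 2 liver-labelled peaks 16 or less. Smarcc1 held 3 (33, 28 and 24) and none. Smarce1 held 5 HEPA1-6 peaks (98, 25, 23, 22 and 19) over 43.4% of its body and 2 liver-labelled peaks (39 and 15), the top interval being the same in both lists (chr11:99209477-99210406). Smarcb1, the core subunit lost in rhabdoid tumours, held 1 HEPA1-6 peak (41), at its start.

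The Smarcd genes encode interchangeable subunits of the same complexes. At Smarcd2 a HEPA1-6 peak of 13604 bp (score 44) covered 83.2% of the gene and reached Psmc5, while 3 liver-labelled peaks (62, 36 and 23) covered 52.7%. Smarcd1 held 2 HEPA1-6 (69 and 39) and 3 liver-labelled peaks (47, 35 and 23), over 57.9% and 38.8%. Smarcd3 held 1 of each (37 and 16), at its end. All HEPA1-6 peaks of these 3 genes also touch a neighbouring gene.

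The Chd remodellers held a HEPA1-6 peak at 9 of 10 genes (90.0%, 59.6 to 98.2%) and a liver-labelled peak at 6 (60.0%, 31.3 to 83.2%). Over all protein-coding genes the shares were 42.0% and 29.7%. Chd3 and Chd4, the ATPases of the NuRD complex, were among the most covered genes. At Chd4, 5 HEPA1-6 peaks (56, 27, 24, 23 and 16) covered 85.3% of the body. It held 7 liver-labelled peaks (35 to 13), and 29.3% of the body lay within them. The liver-labelled peak with score 31 lay beyond the end of Chd4, over Nop2. Its widest HEPA1-6 peak, chr6:125117166-125145763, measured 28598 bp, the widest at any member, and runs on over Nop2 and Iffo1. Chd3 held 5 (44, 26, 25, 22 and 19) over 74.6% and 6 (33, 28, 23, 19, 16 and 14) over 22.6%, and Chd5, the third of this subgroup, none.

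Chd6 had 12 HEPA1-6 peaks, of which 1 scored 69 and the others 24 or less. The single liver-labelled peak (56) was the same interval as the highest HEPA1-6 peak, chr2:161108010-161109179, over the start. Chd1, which reads methylated histone H3 at active genes, held 8 (60, 38, 36, 34, 28, 24, 20 and 14) and 4 (41, 37, 15 and 14). Chd2, its paralogue, held 13 HEPA1-6 peaks with scores of 13 to 38 and 2 liver-labelled peaks (14 and 13), which stood at percentile 9.12 or below of that list. Chd9 held 3 (21, 20 and 19) and 1 (16). Chd7 and Chd8, genes known from developmental disorders, held 1 HEPA1-6 peak each (30 and 48), as did Chd1l (17), and none in the other list.

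Coverage of the gene body and the number of peaks gave different orders. Over genes with a peak, the median share of the body within peaks was 10.7% for members in HEPA1-6 and 3.23% in the list labelled liver, against 15.4% and 5.84% over all protein-coding genes with a peak. Of the 38 members with a peak in both lists, 27 had more HEPA1-6 peaks, 3 had equal numbers and 8 had more liver-labelled peaks. In bases, 36 had more in HEPA1-6 peaks, Kmt2e had the same number and Smarca2 fewer. All 8 genes with more liver-labelled peaks had more bases in HEPA1-6 peaks, and 19 HEPA1-6 peaks at members each overlapped 2 or more liver-labelled peaks. The most was 5, under wide peaks at Hdac7 and at Smarcd2; the latter peak reaches beyond the gene, which itself held 3.

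**Figure D2:**
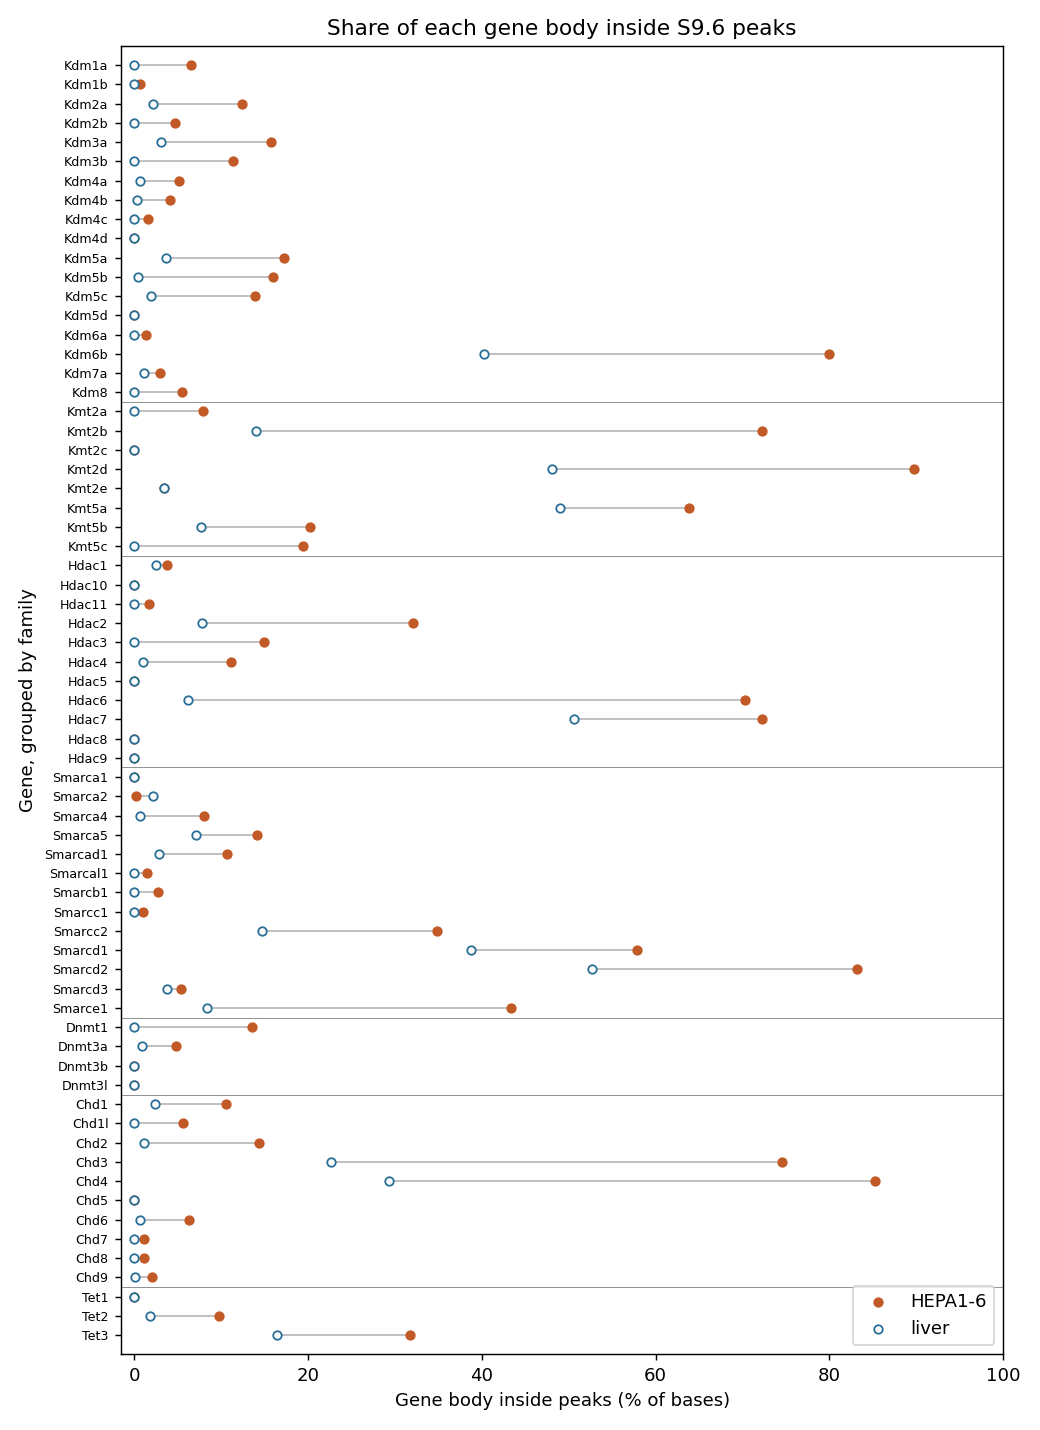
Percent of the gene body within peaks (x axis) for each of the 67 members, grouped by family, with HEPA1-6 as filled and the list labelled liver as open circles. Kmt2d (89.7% and 48.1%) and Chd4 (85.3% and 29.3%) reach farthest right in HEPA1-6, and the open circle lies to the right of the filled one only at Smarca2 (2.18% against 0.177%).

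Peaks were then placed along the gene for the 52 members with an entry in the RefSeq promoter table, which gives the strand and the annotated starts (75 starts, with more than 1 at 14 genes). The other 15 members, Chd1, Chd2, Chd3, Chd7, Hdac1, Hdac3, Hdac10, Kdm2a, Kdm3b, Kdm4b, Kdm5a, Kdm6b, Kmt2b, Kmt2e and Smarce1, were not used for this. Within 1 kb of a start, 27 of 52 members held a HEPA1-6 peak (51.9%, 38.7 to 64.9%), against 25.9% of 17491 protein-coding genes with an entry, and 22 a liver-labelled peak (42.3%, 29.9 to 55.8%), against 17.9%. In both lists 20 did, against 16.4%. Within 1 kb of the 3′ end, 20 members held a HEPA1-6 peak (38.5%, 26.5 to 52.0%), against 23.8%. In the list labelled liver 9 did (17.3%, 9.38 to 29.7%), against 11.8%, and 9 did in both lists, against 11.5%. The shares of 11.8% and 11.5% over all genes lie inside that interval.

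HEPA1-6 peaks overlapped the other list most often at starts. Of 28 HEPA1-6 peaks at starts, 22 overlapped a liver-labelled peak (78.6%, 60.5 to 89.8%), while 8 of 19 at ends (42.1%, 23.1 to 63.7%) and 18 of 136 inside genes (13.2%, 8.54 to 20%) did. The same order held over all protein-coding genes, at 67.7%, 52.1% and 19.8%, so this order is not particular to the members. Start peaks of members also had a higher median score in HEPA1-6, 44 against 30 at ends and 18.5 inside. Over all protein-coding genes these medians were 31, 28 and 19, the same order. Median widths of the HEPA1-6 peaks of members were 2607 bp at starts, 3800 bp at ends and 892 bp inside. The part of width in the overlap was not tested. Inside positions held 74.3% of the 183 HEPA1-6 peaks of these genes (63.2% over all protein-coding genes) and 54.8% of the 73 liver-labelled peaks (49.6%). At Chd6 the start peak scored 69 and the other 11 peaks 24 or less. At Hdac4 it was the reverse, since the start peak scored 27 and the top peak (40) lay inside the gene. A start here is one of the promoter table, which can lie within the body. At Tet3 the only such start is chr6:83441678, and the body reaches to chr6:83457208. Peaks over that 5′ boundary (score 49 in HEPA1-6 and 26 in the list labelled liver) therefore count as inside.

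**Figure D3:**
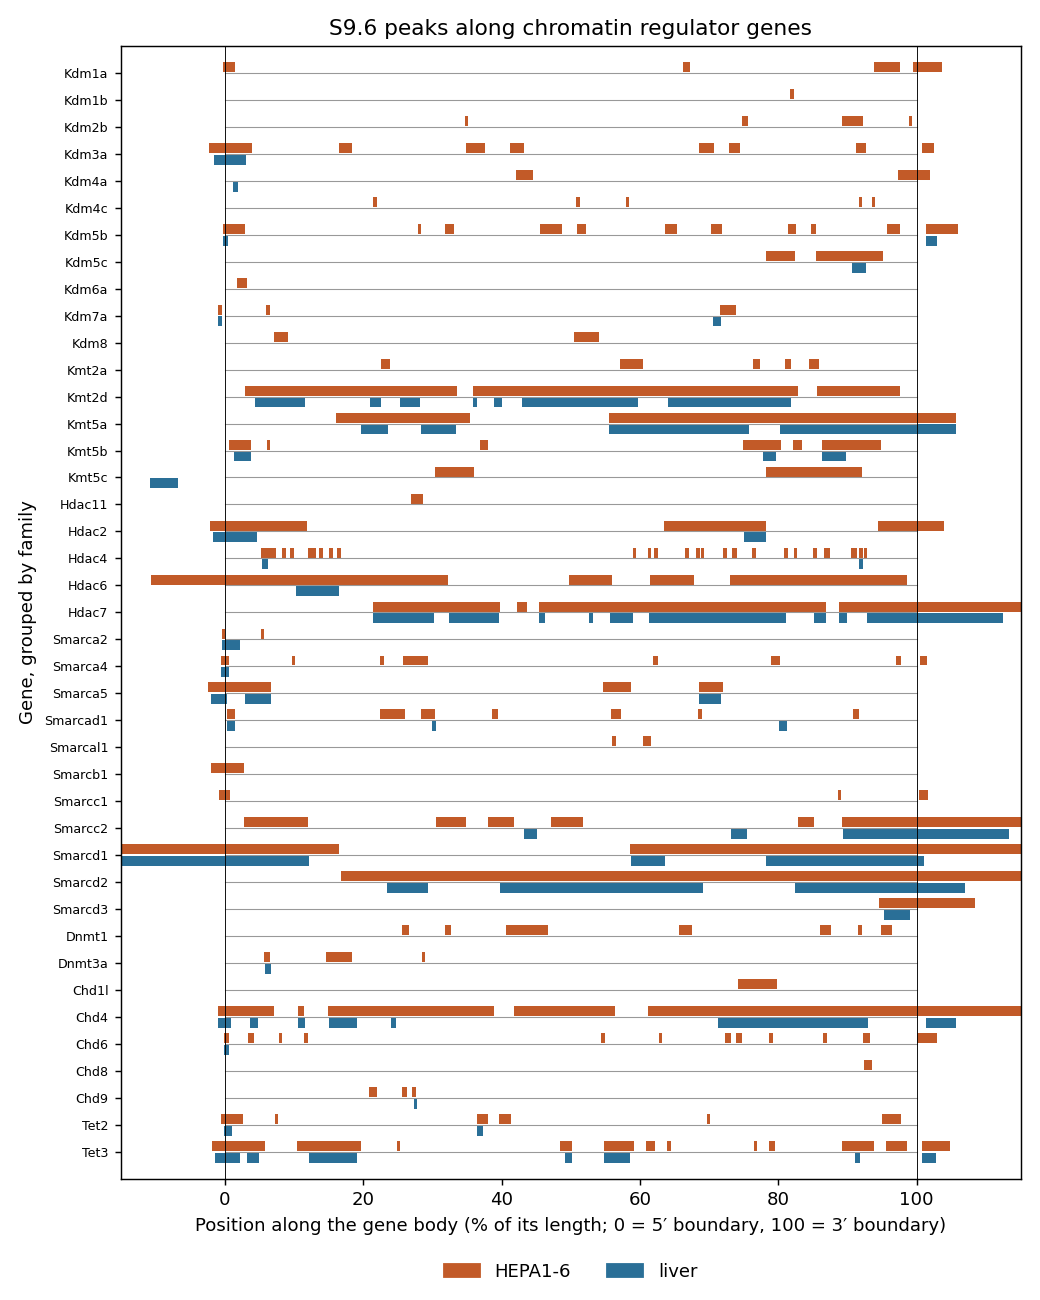
Position of each peak along members with a known strand and a peak, in percent of gene length from the outermost 5′ boundary (0) to the 3′ boundary (100), with a row per gene; bars are peaks, cut at the edges of the plot, and "liver" is the list so labelled. HEPA1-6 bars are spread along the bodies (136 of 183 lie inside), and 22 of the 28 at a start lie over a liver-labelled bar.

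At 4 members with several annotated starts the HEPA1-6 start peak lay within 1 kb of an internal start and not of the outermost one: Dnmt3a, Hdac7, Kdm2b and Kmt5a. At Dnmt3a the outermost start (chr12:3806980) and the next (chr12:3807160) are close together. The peak there begins at chr12:3808004 and overlaps the promoter window of neither, so only the 1 kb limit separates these starts. The outermost start alone held a HEPA1-6 peak at 23 members and a liver-labelled peak at 19. No share over all protein-coding genes was computed for the outermost start. The part of several starts per gene in the comparison at starts above was therefore not tested. At Kdm4a and Kmt5c a start peak was called in the list labelled liver and not in HEPA1-6.

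Every peak at a member carried a strand, whose origin is not stated in the sources used here. Among the 52 members, 172 of 183 HEPA1-6 peaks (94.0%) and 67 of 73 liver-labelled peaks (91.8%) had the strand of the gene. Of member peaks that touch no other gene, 152 of 160 and 55 of 59 did. Over all protein-coding genes it was 93.9% and 91.8% of peaks that touch a protein-coding gene and no other. The opposite-strand peaks of members lay at 9 genes. At Chd6, Smarca4 and Kdm7a, opposite-strand peaks stood at the start in both lists, and in the first 2 cases they were the top peaks of the gene (69 and 56 at Chd6, 57 and 37 at Smarca4). At Smarcd1 all but 1 of the 4 opposite-strand peaks overlap a neighbour, Asic1 or Gpd1, and at the end of Tet3 they overlap Bola3. Chd8, Hdac4, Kdm2b and Kmt5b held opposite-strand peaks in HEPA1-6 only.

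Neighbouring genes bear on part of the counts, since 36 HEPA1-6 peaks at members (14.1%) and 24 liver-labelled peaks (23.5%) also touch another annotated gene. Without such peaks the top score fell from 182 to 21 at Smarcc2 in HEPA1-6 and from 129 to 16 in the list labelled liver, and from 56 to 24 at Chd4 in HEPA1-6. It stayed at 86 and 67 at Kmt2d, 88 and 76 at Kdm2a, 95 and 35 at Smarcad1, and 98 and 39 at Smarce1. No peak was left in either list at Kmt2e, Smarcd3 and Chd1l.

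Peak by peak, the list labelled liver was mostly contained in the HEPA1-6 list at these genes. Of its 102 peaks, 94 overlapped a HEPA1-6 peak (92.2%, 85.3 to 96.0%; all protein-coding genes 88.9%), while 71 of 256 HEPA1-6 peaks (27.7%, 22.6 to 33.5%; all genes 31.8%) overlapped a liver-labelled one. The 8 liver-labelled peaks without a HEPA1-6 counterpart lay at Chd1, Kdm2a, Kdm4a, Kdm6b, Kmt5c and Smarcad1 and, as a pair, at Smarcc2, with scores of 13 to 21. All of these are at or below the median score of their list, 22. Exactly the same interval was called in both lists at 8 members: Chd1, Chd3, Chd6, Kdm6b, Kmt2e, Smarca4, Smarcad1 and Smarce1. Such peaks made up 3.12% of the HEPA1-6 and 7.84% of the liver-labelled peaks at members. Over all protein-coding genes the shares were 2.46% and 5.56%, so the members lay close to the background.

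Promoter sequence was described from RefSeq windows (GRCm38.p6) of 300 bases, from 250 before to 50 after each annotated start. Of 75 windows of members, 21 overlapped a peak of both lists (28%), against 11.9% of 21262 windows of protein-coding genes. A further 8 overlapped a HEPA1-6 peak only (10.7%, all genes 8.19%), none a liver-labelled peak only (all genes 1.30%), and 46 neither (61.3%, all genes 78.6%). Windows of the same gene can overlap and are not independent. Member windows had a median G+C content of 62.7%, against 56.3% over all protein-coding genes. By peak, the median was 65.7% with a peak in both lists, 68.7% with a HEPA1-6 peak only and 60.0% with neither; over all genes it was 64.0%, 62.0% and 54.3%. The ratio of observed to expected CpG, a measure of CpG islands, had medians of 0.878, 1.00 and 0.688 at members and 0.840, 0.798 and 0.435 over all genes. In the same order, G+C quartiles of member windows were 61 and 71.3%, 61.8 and 79.8%, and 52.8 and 70.4%. Those of the CpG ratio were 0.774 and 0.956, 0.991 and 1.05, and 0.421 and 0.906. For both measures, the quartile ranges of member windows with a peak in both lists and with neither overlap.

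Strand asymmetry was described in the same windows. GC skew, the excess of G over C on the gene's strand divided by their sum, had a median of 0.06 in the 21 windows with a peak in both lists, with quartiles of -0.02 and 0.11, of 0.01 in the 8 with a HEPA1-6 peak only (-0.04 and 0.21), and of 0.04 in the 46 without a peak (-0.03 and 0.12). These ranges overlap. A run of 4 or more G (GGGG) on the gene's strand stood in 65 of 75 member windows (86.7%) and in 72.5% of all windows, and its complement CCCC, the same run on the other strand, in 57 (76.0%) and 69.7%. By peak, 19 of 21 windows with a peak in both lists held GGGG. So did 8 of 8 with a HEPA1-6 peak only and 38 of 46 without one. CCCC stood in 19, 4 and 34 of these windows. Over all genes, in the same order, GGGG stood in 83.1%, 81.9% and 69.7% of windows and CCCC in 82.0%, 80.0% and 66.7%.

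**Figure D4:**
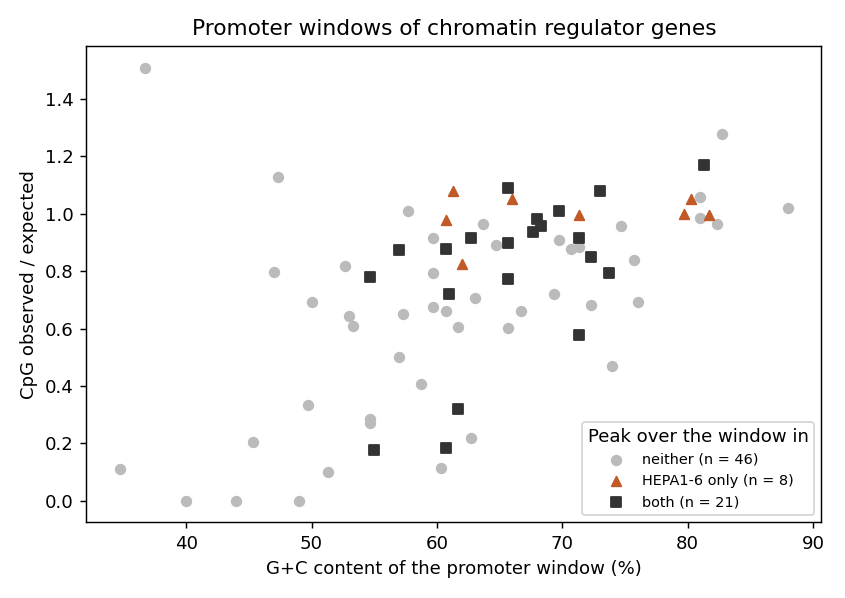
G+C content in percent (x axis) against the ratio of observed to expected CpG (y axis) of the 75 promoter windows of members, marked by peak overlap (both lists, HEPA1-6 only, neither). Windows with a peak have higher medians (65.7% and 68.7% G+C against 60.0%), while windows without a peak span the whole range, up to 88.0% G+C at Kmt2c.

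To show the range of composition, the 250 bases before the outermost start are printed for 5 members, 5′ to 3′ on the gene's strand, with each run of 4 or more G in capitals; they were chosen after their values were seen. Kdm3a (chr6:71632918-71633167, minus strand) had the highest summed rank of its peaks, Chd4 (chr6:125095731-125095980, plus strand) the highest skew, 0.45, and Hdac2 (chr10:36974294-36974543, plus strand) the lowest, -0.14, each among outermost starts whose 300-base window lies wholly inside a peak of both lists. Kmt2c (chr5:25498784-25499033, minus strand) and Dnmt3b (chr2:153649199-153649448, plus strand) are the members richest in G+C among those without a peak in either list.
Kdm3a: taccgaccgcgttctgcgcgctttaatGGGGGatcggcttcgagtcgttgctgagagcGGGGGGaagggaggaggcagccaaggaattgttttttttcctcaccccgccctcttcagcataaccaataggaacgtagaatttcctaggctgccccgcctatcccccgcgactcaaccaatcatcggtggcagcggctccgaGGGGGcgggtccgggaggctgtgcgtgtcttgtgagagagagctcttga
Chd4: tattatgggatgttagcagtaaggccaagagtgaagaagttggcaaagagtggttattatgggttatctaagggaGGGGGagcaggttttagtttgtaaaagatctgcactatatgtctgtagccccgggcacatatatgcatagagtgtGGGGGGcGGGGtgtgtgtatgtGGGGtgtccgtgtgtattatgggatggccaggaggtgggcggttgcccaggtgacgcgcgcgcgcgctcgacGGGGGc
Hdac2: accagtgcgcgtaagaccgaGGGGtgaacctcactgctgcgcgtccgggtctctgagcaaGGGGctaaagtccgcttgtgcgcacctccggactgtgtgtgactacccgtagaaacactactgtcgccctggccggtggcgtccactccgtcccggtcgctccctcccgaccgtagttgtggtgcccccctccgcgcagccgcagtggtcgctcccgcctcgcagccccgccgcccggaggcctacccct
Kmt2c: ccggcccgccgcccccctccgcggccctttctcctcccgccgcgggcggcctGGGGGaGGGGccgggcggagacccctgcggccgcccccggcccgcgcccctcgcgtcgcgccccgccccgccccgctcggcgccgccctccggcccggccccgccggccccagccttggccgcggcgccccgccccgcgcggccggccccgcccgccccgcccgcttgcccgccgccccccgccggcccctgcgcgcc
Dnmt3b: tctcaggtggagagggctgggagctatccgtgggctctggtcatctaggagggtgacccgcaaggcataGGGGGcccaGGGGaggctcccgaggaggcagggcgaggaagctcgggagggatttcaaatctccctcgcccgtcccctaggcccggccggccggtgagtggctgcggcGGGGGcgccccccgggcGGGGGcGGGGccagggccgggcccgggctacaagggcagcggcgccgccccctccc
The Kdm3a stretch holds 3 G runs and 20 CpG, the Chd4 stretch 5 and 12, and the Hdac2 stretch 2 and 27. The stretches without a peak hold 2 and 48 at Kmt2c, whose 300-base window is 88.0% G+C, and 5 and 21 at Dnmt3b, at 76.0%. The windows of the 3 genes with a peak are 60.7%, 57.0% and 69.7% G+C. The last pair was picked for high G+C, so this shows that promoters of such composition occur among members without a peak, and no more.

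Chromatin genes outside the symbol rule were counted the same way. Of 85 such genes, 76 held a HEPA1-6 peak (89.4%, 81.1 to 94.3%) and 62 a liver-labelled peak (72.9%, 62.7 to 81.2%), where 42.0% and 29.7% of all protein-coding genes did, and 9 held neither. The members' own shares were 82.1% (71.3 to 89.4%) and 56.7% (44.8 to 67.9%); no test between these lists was run. In HEPA1-6 and in the list labelled liver the counts were 13 and 11 of 13 Polycomb genes, 13 and 11 of 15 SET domain and Dot1l methyltransferases, 9 and 7 of 9 acetyltransferases and 5 and 4 of 7 sirtuins. They were 10 and 6 of 13 BAF and PBAF partners, 9 and 8 of 9 NuRD partners, 10 and 8 of 10 ISWI partners and INO80 genes, 4 and 4 of 5 DNA methylation partners, and 3 and 3 of 4 BET readers. Jarid2, a Polycomb cofactor, had scores above any member, 805 in HEPA1-6 and 988 in the list labelled liver. Ezh2, the Polycomb methyltransferase that opposes Kdm6a and Kdm6b, held 4 peaks with a top score of 238 in HEPA1-6 and 1 of 96 in the list labelled liver. For these genes outside the symbol rule, overlap of the peaks with neighbouring genes was not checked. All 9 NuRD partners and the NuRD ATPases Chd3 and Chd4 held HEPA1-6 peaks, as did the NuRD deacetylases Hdac1 and Hdac2. Chd5, of the same subgroup as Chd3 and Chd4, held none.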

How the data were processed

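S9.6 immunoprecipitates, RNase H1 controls and inputs were sequenced as paired ends after sonication, per the labels' protocols. The submitters' processing notes name CASAVA 1.8.2, cutadapt, Bowtie2, SAMtools, bedtools, MACS2 and the build mm10, without settings. The authors deposited 1 peak list per source, with position, name, strand and a whole-number score per peak; peaks were called on merged immunoprecipitate against input, per the deposited peak names. Which libraries were merged, and the score's scale, are not given in the sources used here.

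Peaks were laid over RefSeq genes (GRCm38.p6) in Python 3.11.15 (pandas 2.3.3, scipy 1.17.1, matplotlib 3.10.9), with a minimum overlap of 1 bp and a flank of 1 kb; coordinates are 1-based. Strands and starts came from the RefSeq promoter table (52 of 67 members, 17491 of 21883 genes). Counts have 95% Wilson intervals and stand beside the share over all protein-coding genes. No test was run, since each source has 1 list. The overlap step, tested on simulated data with 200 planted genes among 21883, found 100% of them. Depth per sample is unknown.

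Members, pathway list (85 genes) and marker lists (20 hepatocyte, 12 cell cycle and 14 other liver cell genes; 1 hepatocyte gene was not in the table) were chosen with earlier results of these data known. Named genes were, per family, the 3 with the highest score and the 2 with most peaks, then the 3 widest and 3 most covered over all members; the remaining members are given more briefly. Alternatives were other flanks, overlap rules and windows, peak midpoints, shortened lists, the strand of the gene, and members or peaks without neighbouring genes.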

Additional observations from a re-analysis of the deposited data

How the results depend on the processing

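Of 83 alternative values for 11 results, 64 lay inside the reported interval or less than 1.5 times from the reported count, and 19 moved. The 18 members with no other gene in the flanked body, fewer by construction, gave 15 with a HEPA1-6 peak, 9 with a liver-labelled peak, 9 with both and 6 with HEPA1-6 only. Peaks on the strand of the gene, over 52 members, gave 25 with a liver-labelled peak, 24 with both and 1 with a liver-labelled peak only (Smarcd1); without the strand rule these 52 gave 27, 27 and 0, so most of the move from 38 comes from the smaller set. That last count was 1 in the higher-scoring 50% of each list (Smarca2), 2 with equal numbers of peaks (Kmt5c and Smarca2) and 2 with peaks that touch no other gene (Smarcd1 and Smarcd2), so the absence of such genes depends on these settings. Peak midpoints gave 16 members with a HEPA1-6 peak at the start, 8 at the end, and 3 with a liver-labelled peak at the end. The share of HEPA1-6 peaks overlapping the other list was 12.5% with 50% of both peaks required, 36.6% in the higher-scoring 50% and 44.3% with equal numbers; for liver-labelled peaks it was 31.4%, 97% and 84.3%. Leaving out peaks that touch other genes, the sex chromosomes, and all but the outermost start were chosen after seeing the data. No paired analysis was possible because each source has 1 merged list, although the labels number the libraries; leaving out replicates was not run for the same reason. The unknown depth limits each count of peaks found in HEPA1-6 only, since a peak below the threshold of the shorter list is not listed.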
